A study of Mus musculus with 16 samples.

Results

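The genes described here are 8 genes of pigment cells (Dct, Tyrp1, Tyr, Slc45a2, Mlana, Mitf, Kit and Mc1r), measured by microarray in the aortic valve and the ascending aorta of mice. They were taken as every probe set (a group of short probes for 1 transcript) that the platform annotation gives to 1 of these symbols alone. That gave 16 probe sets for the 8 genes, out of 45037 probe sets tested and 18193 genes. The groups, each of 4 arrays from mice aged 30 days, were valve Eln+/-, valve Eln+/+, aorta Eln+/- and aorta Eln+/+. Eln+/- mice carry 1 inactive allele of Eln, the gene of elastin, and Eln+/+ mice carry none. No treatment was given, each array holds amplified RNA of 1 specimen with no pooling, and the labels give neither strain, coat colour nor sex. A valve specimen held the cusps together with the annulus and the root, so it was not valve leaflet alone.

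Pigment cells, or melanocytes, arise from the neural crest and make melanin inside an organelle called the melanosome. Mitf is the transcription factor that sets the fate of these cells, Kit is the receptor tyrosine kinase they need to migrate and survive, and Mc1r is the receptor through which melanocyte-stimulating hormone acts. Tyr oxidises tyrosine in the first step of melanin synthesis, Dct converts dopachrome, and Tyrp1 acts on the product of Dct. Mlana is a membrane protein of the maturing melanosome and Slc45a2 is a melanosomal transporter. Melanocytes are known to reside in the mouse heart, including its valves.

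Mitf acts on the enzyme genes through a short element, the M-box, whose core reads TCATGTG. The sequences of the 3 enzyme genes are shown because their promoters share this core and because Dct and Tyrp1 carry the main result below. They are the 250 bases upstream of the start in the RefSeq table (build GRCm38.p6), written from 5′ to 3′ on the strand of the gene, with TCATGTG and its reverse complement CACATGA in capitals. Dct lies at chr14:118052247-118052496 on the minus strand, Tyrp1 at chr4:80833963-80834212 on the plus strand and Tyr at chr7:87493513-87493762 on the minus strand.
Dct: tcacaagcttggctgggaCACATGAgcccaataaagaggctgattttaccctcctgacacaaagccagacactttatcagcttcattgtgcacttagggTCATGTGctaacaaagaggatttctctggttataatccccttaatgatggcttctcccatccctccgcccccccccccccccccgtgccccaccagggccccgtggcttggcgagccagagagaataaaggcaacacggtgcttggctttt
Tyrp1: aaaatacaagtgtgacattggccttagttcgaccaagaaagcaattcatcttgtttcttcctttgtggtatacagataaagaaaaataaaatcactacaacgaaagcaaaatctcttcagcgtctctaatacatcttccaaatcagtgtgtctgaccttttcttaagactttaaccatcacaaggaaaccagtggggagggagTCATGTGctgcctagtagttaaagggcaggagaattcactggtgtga
Tyr: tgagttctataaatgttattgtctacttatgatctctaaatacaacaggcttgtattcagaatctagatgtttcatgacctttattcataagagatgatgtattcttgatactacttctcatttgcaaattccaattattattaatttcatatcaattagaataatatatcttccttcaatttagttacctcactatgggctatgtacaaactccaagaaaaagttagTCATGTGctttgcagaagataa
The core occurred 2 times upstream of Dct and 1 time each upstream of Tyrp1 and Tyr. Read on both strands, it was present in 3.25% of the 32851 promoter windows of this length, and the shorter CATGTG within it in 12.3%. The table held 6 of the 8 genes with 9 starts; the core was in the windows of Dct, Tyrp1, Tyr and Mc1r, and in none of the windows of Kit and Mitf. A match is only a match of letters and says nothing of binding in these tissues.

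Values are log2 of the deposited ratio, which for 39780 probe sets is taken to the median over the 16 arrays, so they show how arrays differ and hold no absolute level. In the other 5257 the median ratio was below 1, so the divisor was larger than the median, as a floor under the divisor at low signal would make it; the sources used here do not state that step. Among the 16 pigment cell probe sets these were Tyr 1456095_at, Tyr 1448821_at and Tyrp1 1415862_at, with median ratios of 0.515, 0.709 and 0.755. Eln itself averaged -1.71 ± 0.78 in valve Eln+/- and -0.44 ± 0.58 in valve Eln+/+, and -0.12 ± 0.35 in aorta Eln+/- and 0.30 ± 0.19 in aorta Eln+/+ (SD, n = 4 each), with no genotype difference past the threshold of the fit. Array medians of the ratio spanned 0.957 to 1.005. All 9 valve genes listed, among them Prg4, Comp and Tbx20, rose in valve, in a list made with earlier results of these data known. All 15 heart muscle genes listed were higher in valve than in aorta, by a median of 3.96 on the log2 scale, so the valve specimens held heart muscle. Aorta Eln+/- replicate 3 and aorta Eln+/+ replicate 2 had more heart muscle signal than the other aorta arrays, with means of -0.70 and -0.47 over 11 such genes against -3.35 to -2.94. Xist, the transcript that silences 1 X chromosome in females, was high in all 8 Eln+/- arrays and in only valve replicate 2 and aorta replicate 4 of the Eln+/+ arrays, so genotype and sex were not balanced.

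Dct, Mlana and Tyrp1 were several-fold higher in valve than in aorta, and Tyr was modestly higher. The calls of Tyr, Mitf and Slc45a2 depended on the probe set. Kit and Mc1r each had probe sets that differed in sign. In Eln+/- tissue 3 of the 8 genes rose in valve (adjusted p under 0.05, limma with Benjamini-Hochberg adjustment over all probe sets), each gene taken by its probe set of highest SD. Over all 18193 genes 4.41% were called higher in that comparison. In Eln+/+ tissue 2 of the 8 genes rose, against 1.19% of all genes. With the genotypes averaged 4 of the 8 rose and 0 fell, against 5.83% of all genes called higher, and the median difference was 0.73 over the 8 genes and -0.03 over all genes. The 8 genes were chosen with earlier results of these data known, so the shares describe them and are no independent test. In these bulk specimens more pigment cells and more of these RNAs per cell cannot be told apart.

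**Figure D1:**
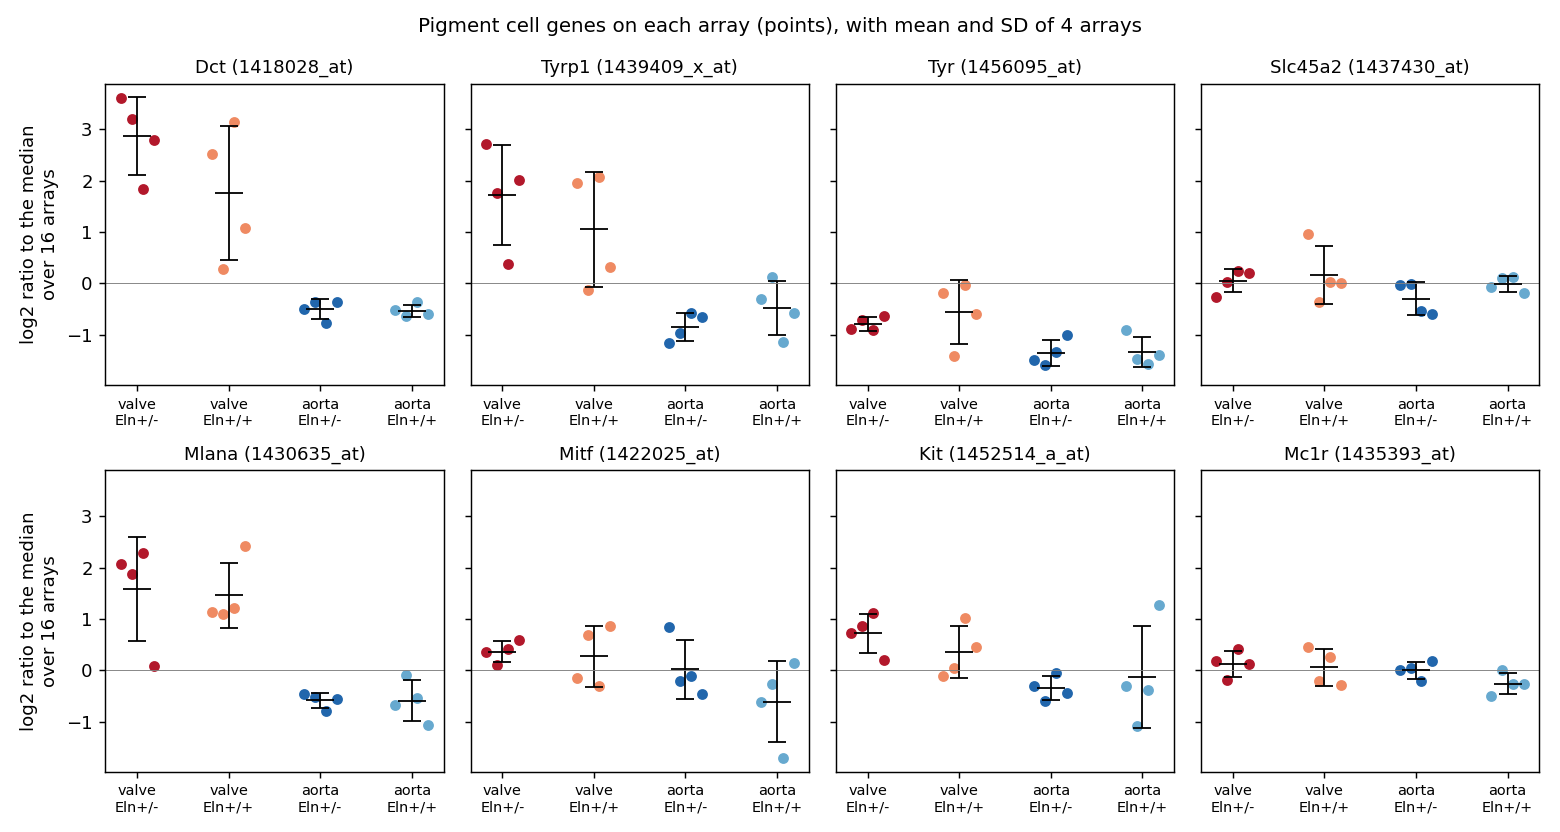
Each panel shows 1 gene by its probe set of highest SD, with the log2 ratio to the median over 16 arrays on the vertical axis, points for arrays, and bars for the mean and SD of the 4 arrays in a group. Dct and Mlana lie higher on all 8 valve arrays than on any aorta array, as 1.64% of genes do. Slc45a2, Mc1r, Kit and Mitf overlap between the tissues.

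Among the melanin enzymes, Dct had the largest tissue difference of the 8 genes. Its log2 values were 3.61, 3.21, 1.84 and 2.80 in valve Eln+/- and 2.52, 0.29, 3.14 and 1.09 in valve Eln+/+, against -0.49, -0.37, -0.77 and -0.36 in aorta Eln+/- and -0.53, -0.63, -0.37 and -0.59 in aorta Eln+/+. Every valve array was above every aorta array, as in 1.2% of all probe sets, although valve Eln+/+ replicate 2 came close to the aorta values. Among the valve arrays, that array also had the lowest heart muscle and macrophage means (0.52 and -0.14) and the highest smooth muscle mean (0.29). Its valve gene mean of 0.86 was not the lowest. Whether its make-up bears on its low pigment gene values was not tested. The spread was also unlike: the SD was 1.15 over the 8 valve arrays and 0.15 over the 8 aorta arrays. The valve mean was 2.87 ± 0.76 against an aorta mean of -0.50 ± 0.19 in Eln+/- (SD, n = 4 each), a difference of 3.36 ± 0.48 (SE) or 10.3-fold, with a limma adjusted p of 0.000809. In Eln+/+ the means were 1.76 ± 1.30 in valve and -0.53 ± 0.12 in aorta (SD, n = 4 each), a difference of 2.29 ± 0.48 (SE) or 4.89-fold, with a limma adjusted p of 0.0328. Averaged over genotypes the difference was 2.83 ± 0.34 (SE) or 7.09-fold, and its exact permutation p of 0.000408 over 4900 assignments within genotype is the smallest they can give.

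The Dct call in Eln+/+ tissue held without valve Eln+/+ replicate 2 but not without any other array of those 2 groups. It was also lost with the 2 aorta arrays of higher heart muscle signal left out (limma adjusted p = 0.104). Its limma adjusted p was 0.128, 0.0761 and 0.0521 without valve Eln+/+ replicate 1, 3 or 4, and 0.0866, 0.0743, 0.0787 and 0.0732 without aorta Eln+/+ replicate 1, 2, 3 or 4, with differences between 1.83 and 2.78 over all the alternatives tried. The 10.3-fold rise in Eln+/- tissue kept its call under each of 28 alternatives, with an adjusted p of at most 0.00498.

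Tyrp1 followed Dct, and its 3 probe sets had the same direction. By probe set 1439409_x_at it read 2.71, 1.77, 0.38 and 2.02 in valve Eln+/- and 1.95, -0.14, 2.07 and 0.33 in valve Eln+/+, against -1.16, -0.96, -0.58 and -0.66 in aorta Eln+/- and -0.30, 0.12, -1.13 and -0.58 in aorta Eln+/+. Only valve Eln+/+ replicate 2 was below the highest aorta array. Tyrp1 rose in Eln+/- valve by 2.56 ± 0.51 (SE), or 5.91-fold, with a limma adjusted p of 0.00739. In Eln+/+ the difference was 1.52 ± 0.51 (SE), or 2.88-fold, and missed the threshold with a limma adjusted p of 0.219. The other 2 probe sets placed all 8 valve arrays above all 8 aorta arrays, as 1.2% of all probe sets did. Their differences averaged over genotypes were 1.92 ± 0.33 and 1.20 ± 0.23 (SE), with limma adjusted p of 0.00163 and 0.0039. In Eln+/+ alone these 2 probe sets also missed the threshold, with limma adjusted p of 0.109 and 0.159.

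Tyr, the enzyme that begins melanin synthesis, had a smaller difference than Dct and Tyrp1. Probe set 1456095_at read -0.89, -0.72, -0.91 and -0.64 in valve Eln+/- and -0.19, -1.41, -0.03 and -0.59 in valve Eln+/+, against -1.50, -1.59, -1.34 and -1.0 in aorta Eln+/- and -0.92, -1.48, -1.56 and -1.40 in aorta Eln+/+. In Eln+/- the groups did not overlap, as in 5.62% of all probe sets higher in valve, and in Eln+/+ valve replicate 2 again lay among the aorta arrays. Averaged over genotypes Tyr rose by 0.67 ± 0.18 (SE), or 1.60-fold, with a limma adjusted p of 0.0258. That call was lost without valve Eln+/+ replicate 1 or 3, aorta Eln+/- replicate 1 or aorta Eln+/+ replicate 3 (adjusted p of 0.0579, 0.050, 0.0543 and 0.0557), and with the 2 aorta arrays of higher heart muscle signal left out (0.0786). Within a single genotype Tyr did not pass, at 0.56 ± 0.25 (SE; adjusted p = 0.225) in Eln+/- and 0.78 ± 0.25 (SE; adjusted p = 0.195) in Eln+/+, where it passed at 0.0154 without valve Eln+/+ replicate 2. The other 2 Tyr probe sets differed by 0.56 and 0.36 over both genotypes and did not pass. Tyr is thus read here from a probe set whose median ratio was below 1. All its values were below 0, so on every array its signal lay under the divisor. With such probe sets left out the count of called genes averaged over genotypes was 3, Tyr not being tested.

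The melanosome proteins parted from each other. Mlana read 2.07, 1.88, 2.28 and 0.09 in valve Eln+/- and 1.13, 1.10, 1.21 and 2.41 in valve Eln+/+, against -0.47, -0.53, -0.79 and -0.56 in aorta Eln+/- and -0.67, -0.09, -0.53 and -1.06 in aorta Eln+/+. All 8 valve arrays were above all 8 aorta arrays, as in 1.2% of all probe sets. The lowest valve array was Eln+/- replicate 4, in which Dct and Tyrp1 were high. Mlana rose by 2.17 ± 0.40 (SE), or 4.49-fold, in Eln+/- with a limma adjusted p of 0.00497, and by 2.05 ± 0.40 (SE), or 4.15-fold, in Eln+/+ with a limma adjusted p of 0.0216. In Eln+/+ the adjusted p passed 0.05 without valve replicate 1 or 4 (0.0520 and 0.0803) and without aorta replicate 1, 3 or 4 (0.0648, 0.0594 and 0.0676).

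Slc45a2, the transporter, gave a call by 1 of its 2 probe sets. Its probe set of highest SD ranged between -0.36 and 0.96 over the valve arrays and between -0.60 and 0.13 over the aorta arrays, a difference averaged over genotypes of 0.26 ± 0.17 (SE; limma adjusted p = 0.429). The other Slc45a2 probe set was less variable and rose by 0.46 ± 0.13 (SE), or 1.37-fold, with a limma adjusted p of 0.0393 (4.4% of all probe sets were called higher), although its valve and aorta arrays overlapped. With the mean of the probe sets of a gene fitted in place of 1 probe set, Slc45a2 passed at 0.36 ± 0.09 (SE; limma adjusted p = 0.0202).

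Mitf, the regulator, gave different pictures by probe set. Probe set 1455214_at read 0.65, 0.52, 1.12 and 0.47 in valve Eln+/- and 0.04, -0.20, -0.35 and 0.47 in valve Eln+/+, against -0.04, -1.08, 0.05 and -0.60 in aorta Eln+/- and -0.51, 0.39, -0.53 and -0.70 in aorta Eln+/+. The valve Eln+/- arrays lay above those of valve Eln+/+, as in 3% of all probe sets, and above those of aorta Eln+/-, as in 5.62%. The lowest of them was above valve Eln+/+ replicate 4 by almost nothing. This probe set rose in Eln+/- valve by 1.11 ± 0.28 (SE), or 2.16-fold, with a limma adjusted p of 0.0300 (3.27% of all probe sets were called higher there), while in Eln+/+ it differed by 0.33 ± 0.28 (SE; adjusted p = 0.691). Averaged over genotypes it rose by 0.72 ± 0.20 (SE), or 1.65-fold, with a limma adjusted p of 0.0356. The probe set of highest SD, 1422025_at, differed by 0.35 ± 0.37 (SE; adjusted p = 0.690) in Eln+/- and 0.88 ± 0.37 (SE; adjusted p = 0.362) in Eln+/+. Its aorta arrays ran between -1.71 and 0.85, wider than its valve arrays, which ran between -0.31 and 0.86. The mean of both Mitf probe sets passed averaged over genotypes, at 0.67 ± 0.19 (SE; limma adjusted p = 0.0313).

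The 2 receptors did not pass the test, and probe sets of each disagreed in sign. For Kit, probe set 1452514_a_at read 0.72, 0.86, 1.11 and 0.21 in valve Eln+/- and -0.11, 0.04, 1.02 and 0.46 in valve Eln+/+, against -0.32, -0.60, -0.05 and -0.45 in aorta Eln+/- and -0.31, -1.09, -0.39 and 1.27 in aorta Eln+/+. The groups did not overlap in Eln+/-, as in 5.62% of all probe sets higher in valve. The highest of the 16 values was an aorta array, Eln+/+ replicate 4, and Kit differed by 0.78 ± 0.27 (SE; limma adjusted p = 0.0989) over both genotypes. Without that array the adjusted p was 0.00472 over both genotypes and 0.0261 in Eln+/-, against 0.123 there with all arrays. The other Kit probe set ran the opposite way, at -0.45 ± 0.14 (SE; limma adjusted p = 0.0643), and in Eln+/+ its valve arrays were all below its aorta arrays, as in 4.09% of all probe sets. Mc1r, by its probe set of highest SD, ranged between -0.29 and 0.45 in valve and between -0.50 and 0.18 in aorta, and its 2 probe sets differed in sign, at 0.22 ± 0.13 and -0.16 ± 0.09 (SE), neither past the threshold.

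**Figure D2:**
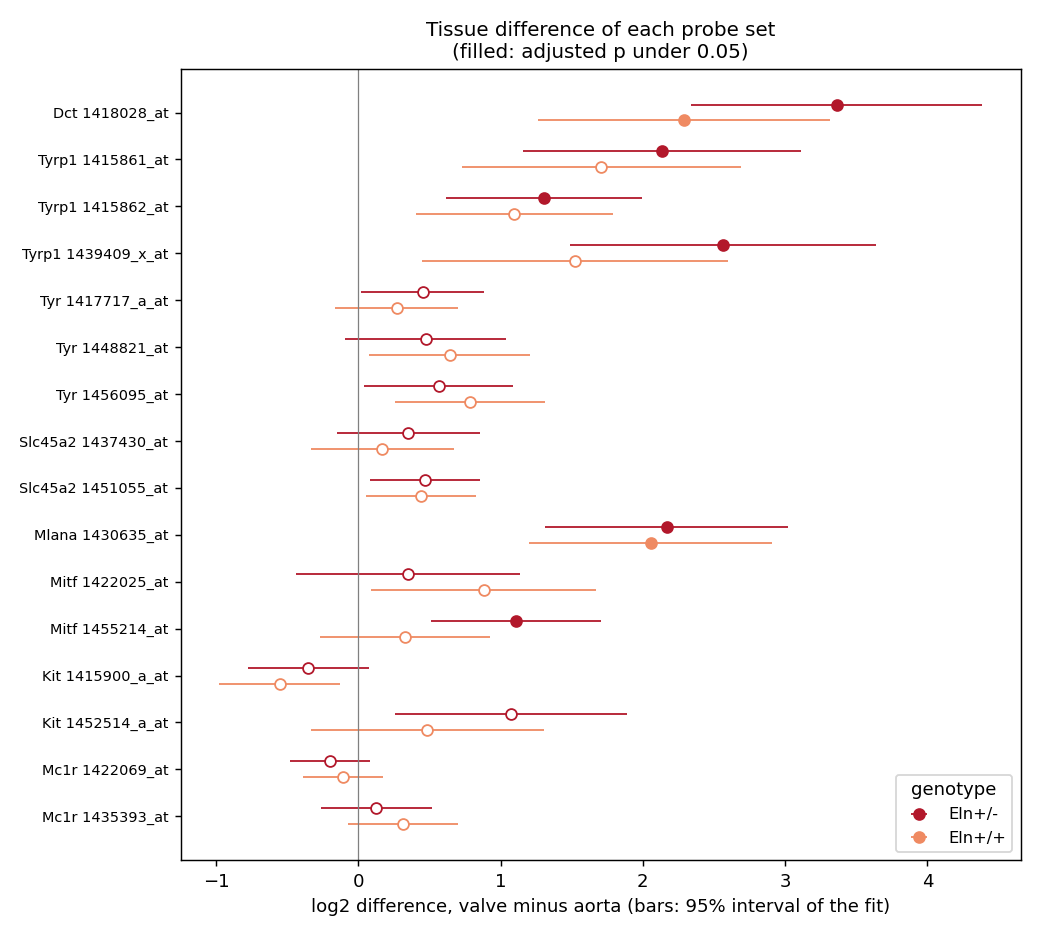
Each row is 1 probe set, and the horizontal axis is the log2 difference of valve minus aorta, with the 95% interval of the fit, in Eln+/- (dark red) and Eln+/+ (orange), filled where the adjusted p was under 0.05. Dct, Mlana and the 3 Tyrp1 probe sets lie to the right of 1 in both genotypes, and 1 probe set each of Kit and Mc1r lies to the left of 0.

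The order of the 8 tissue differences averaged over genotypes, in log2 units, was Dct at 2.83, Mlana at 2.11, Tyrp1 at 2.04, Kit at 0.78, Tyr at 0.67, Mitf at 0.61, Slc45a2 at 0.26 and Mc1r at 0.22. Mlana and Tyrp1 differed by less than their standard errors of 0.28 and 0.36, and so did Kit, Tyr and Mitf, with standard errors between 0.18 and 0.27, and Slc45a2 and Mc1r, with standard errors of 0.17 and 0.13. These are differences on each probe set's own scale and do not rank the amounts of the transcripts. Leaving out the 2 aorta arrays with more heart muscle signal kept the calls of Dct, Mlana and Tyrp1 in Eln+/- but in Eln+/+ that of Mlana alone, and Dct read -0.77 and -0.63 on those 2 arrays, the lowest of the aorta values.

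Genotype made no difference that passed the test for any of the 8 genes. In the valve 0 of 45037 probe sets passed in limma, 0% of them, while 3873 had an unadjusted p under 0.05, among them 2 of the 16 pigment cell probe sets. Dct averaged 2.87 ± 0.76 in valve Eln+/- and 1.76 ± 1.30 in valve Eln+/+ (SD, n = 4 each), a difference of 1.11 on the log2 scale whose 95% interval ran between 0.08 and 2.13 before adjustment (adjusted p = 0.537). The 2 groups overlapped, and the exact two-sided permutation p was 0.2. Mitf by 1455214_at was higher on all 4 valve Eln+/- arrays than on any valve Eln+/+ array, as 3% of all probe sets were (the closest pair agreed to 2 decimals), by 0.70 ± 0.28 (SE; limma adjusted p = 0.506); the exact permutation p of 0.0286 is the smallest that 70 assignments allow. The remaining genes, each by its probe set of highest SD, differed by values between -0.24 for Tyr and 0.67 for Tyrp1.

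Heart muscle and smooth muscle genes also differed in mean between the genotypes in the valve. The 15 heart muscle genes averaged 1.95 ± 0.49 in valve Eln+/- and 1.07 ± 0.47 in valve Eln+/+ (SD, n = 4 each). The 10 smooth muscle genes averaged -0.95 ± 0.64 in valve Eln+/- and -0.15 ± 0.41 in valve Eln+/+ (SD, n = 4 each). Mitf by its probe set of highest SD had a valve genotype difference of 0.093 ± 0.37 (SE), already smaller than its SE. With heart muscle as a covariate that difference was -0.0068. The valve genotype difference of Dct ran between 0.62 and 1.87 over 28 alternatives, the heart muscle covariate among them. Its limma adjusted p was at least 0.440. The Mitf probe set of the larger difference was not read from the covariate fit. The part of heart muscle in that larger Mitf difference was thus not tested. The part of the smooth muscle genes was not tested. In the aorta 0 probe sets passed, 0% of them, with 2480 at an unadjusted p under 0.05, and the 8 genes differed between -0.37 for Tyrp1 and 0.63 for Mitf. Whether the tissue difference itself depended on genotype was tested as an interaction, which 0 probe sets passed (0%), with 3477 at an unadjusted p under 0.05. The interaction was 1.07 ± 0.68 (SE; limma adjusted p = 0.708) for Dct and 1.04 ± 0.71 (SE; limma adjusted p = 0.722) for Tyrp1, with 95% intervals of -0.38 to 2.52 and -0.48 to 2.56.

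Within the 8 valve arrays, Dct varied together with 2 of the 3 Tyrp1 probe sets, while Mlana did not follow it. Valve Eln+/- replicate 1 was highest in both Dct and Tyrp1, and valve Eln+/+ replicate 2 was lowest in both. Pearson's r between Tyrp1 and Dct was 0.946 and Spearman's rho 0.857 (exact permutation p of 0.000645 and 0.0107, adjusted over 84 relations to 0.0271 and 0.3). Without the 2 arrays farthest from the median of Dct, r was 0.891. The permutations ran over all 8 valve arrays and took no account of genotype. Tyrp1 1415861_at gave r = 0.930 with Dct (exact permutation p = 0.00129, adjusted to 0.0271), but 1415862_at, whose median ratio was below 1, gave r = 0.488 (exact permutation p = 0.224, adjusted to 0.823). Between Mlana and Dct r was -0.0965 and rho 0.0238, with exact permutation p of 0.822 and 0.977. Over all 18193 genes, Dct was the first in likeness to Tyrp1 across these 8 arrays, and Tyrp1 the second in likeness to Dct, after Elk3.

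Mlana instead ordered the valve arrays nearly as the genes of atrial muscle did. The mean of Nppa, Sln, Myl7 and Myl4, 4 genes of the atrial myocardium, was 3.46, 3.07, 3.72 and 0.87 in valve Eln+/- and 1.76, 0.94, 2.17 and 3.28 in valve Eln+/+, against -4.00 to -2.15 in aorta Eln+/- and -4.59 to -3.74 in aorta Eln+/+. Valve Eln+/- replicate 4 was lowest in this mean as in Mlana, and the 4 arrays highest in Mlana were the 4 highest in it. Pearson's r between Mlana and this mean was 0.924 and Spearman's rho 0.929, and r was 0.945 without the 2 farthest arrays. These 4 genes were set apart from the heart muscle list after the values were seen, so their r is a description with no test. An r of this size was not particular to them. Over all 18193 genes, the 8 nearest to Mlana on these arrays ran from Bub1 (r = 0.968) to Fbxw5 (0.929). Each was above the r of the atrial mean, and none was 1 of these 4 genes. With the other 11 heart muscle genes r was 0.263, and with the whole list of 15 it was 0.608 and rho 0.762 (exact permutation p of 0.110 and 0.0368, adjusted to 0.769 and 0.618). Dct gave r = 0.235 with the atrial mean and 0.352 with the other heart muscle genes, and Tyrp1 gave 0.0148 and 0.204.

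**Figure D3:**
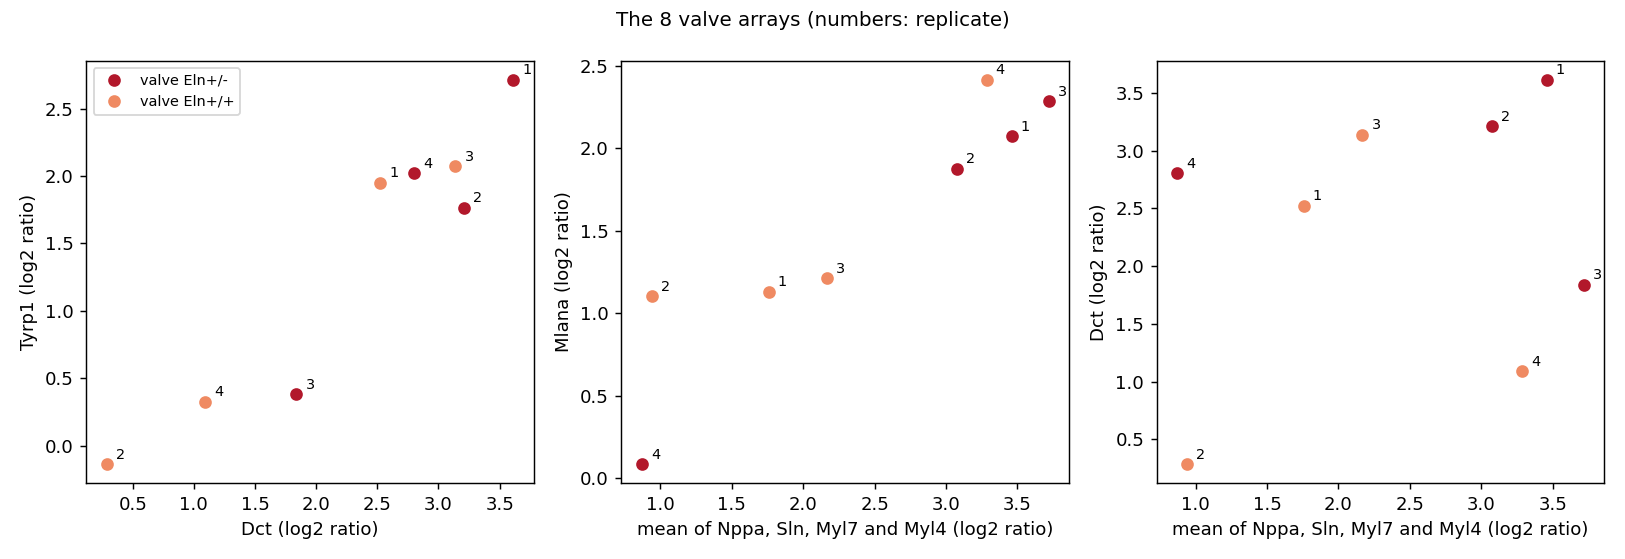
Each point is 1 of the 8 valve arrays, labelled by replicate number and coloured by genotype, with log2 ratios on both axes. Tyrp1 lines up with Dct on the left and Mlana with the mean of 4 atrial muscle genes in the middle, while Dct on the right is spread over the range of the atrial mean.

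Mitf by 1455214_at varied with the muscle genes among the valve arrays, and by 1422025_at it did not pass. The first had r = 0.931 and rho = 0.905 with the 15 heart muscle genes (exact permutation p of 0.00129 and 0.00456, adjusted to 0.0271 and 0.3). With the smooth muscle genes it had r = -0.936 and rho = -0.881 (exact permutation p of 0.000446 and 0.00724, adjusted to 0.0271 and 0.3). Without the 2 farthest arrays these r were 0.870 and -0.879. The permutations took no account of genotype, and the genotypes differed in mean in each of these measures. Mitf by 1455214_at averaged 0.69 in valve Eln+/- and -0.01 in valve Eln+/+. The heart muscle genes averaged 1.95 and 1.07 in these groups, and the smooth muscle genes -0.95 and -0.15. Relations within a genotype were not tested. Probe set 1422025_at had r = 0.174 with the heart muscle genes and -0.196 with the smooth muscle genes (exact permutation p of 0.675 and 0.650). Kit, Mc1r, Tyr, Slc45a2 and Mlana had no relation past an adjusted 0.05 among the 84 computed.

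The wider melanosome list did not move as a group. Of 28 measured genes of melanosome structure and transport, 16 were above 0 and 12 below in the difference averaged over genotypes, 3 rose and 2 fell (5.83% and 3.8% of all genes), and the median was 0.02. Pmel, which forms the fibrils on which melanin is laid down, averaged 0.68 in valve Eln+/- and 0.46 in valve Eln+/+, against -0.44 in aorta Eln+/- and -0.37 in aorta Eln+/+, and rose by 0.98 ± 0.16 (SE; limma adjusted p = 0.00109). All 8 valve arrays were above all 8 aorta arrays for Pmel, as for 1.64% of genes. Gpnmb, a melanosomal glycoprotein that macrophages also make, rose by 0.66 ± 0.16 (SE; adjusted p = 0.0153), and Sytl2, a Rab27 effector in melanosome transport, by 1.12 ± 0.27 (SE; adjusted p = 0.0164). Rab27a, the GTPase that tethers melanosomes to actin, fell by 0.86 (adjusted p = 0.00274), and Lyst, a regulator of lysosome-related organelles, fell by 1.31 (adjusted p = 0.00262); both serve many other cell types. Oca2, Gpr143 and Trpm1, which like the pigment enzymes mark melanocytes, differed by 0.13 ± 0.09, -0.04 ± 0.09 and 0.22 ± 0.26 (SE) and did not pass. Gpr143 ran between -0.70 and -0.09 in valve and between -0.61 and -0.34 in aorta, so on every array its signal lay under the divisor.

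Among the regulators of pigment cells Sox10, Kitl and Ptgds rose, and several of the list act in valve and nerve cells as well. Of 24 measured genes 17 were above 0 in the difference averaged over genotypes, against 44.3% of all genes; 7 rose and 0 fell, against 5.83% and 3.8% of all genes, and the median was 0.24. Sox10, the neural crest factor that activates Mitf and Dct, rose by 1.26 ± 0.25 (SE; limma adjusted p = 0.00464) and in Eln+/- alone by 1.67 ± 0.35 (SE; limma adjusted p = 0.0102). Kitl, the ligand of Kit, rose by 0.90 ± 0.21 (SE; adjusted p = 0.0160). Ptgds, a prostaglandin synthase found in melanocytes, rose by 1.92 ± 0.23 (SE; adjusted p = 0.000107), and Sox9 and Snai2, factors of neural crest and of valve mesenchyme, by 1.81 ± 0.14 and 0.81 ± 0.16 (SE). Zeb2 and Lef1 rose by 0.79 ± 0.22 and 0.54 ± 0.15 (SE; limma adjusted p of 0.0374 and 0.0340), calls lost in 14 of 27 and 11 of 26 alternatives, with an adjusted p of at most 0.138 and 0.0761. The receptor Ednrb and the factor Pax3 differed by 1.19 ± 0.36 and 0.64 ± 0.23 (SE) and did not pass, with limma adjusted p of 0.0567 and 0.110.

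**Figure D4:**
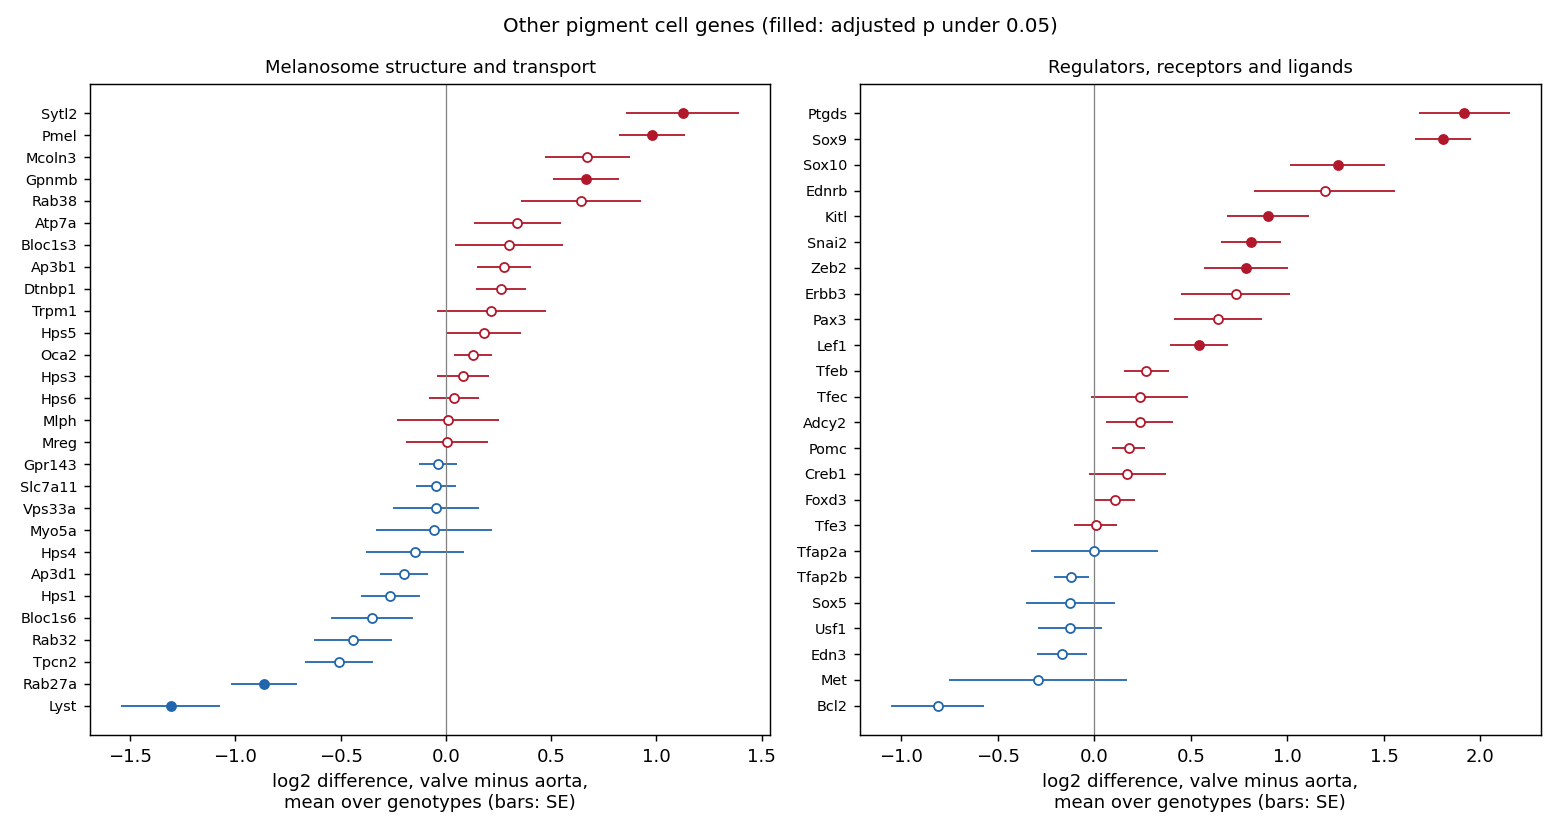
Each row is 1 gene of the melanosome list (left) or the regulator list (right), and the horizontal axis is the log2 difference of valve minus aorta averaged over genotypes, with bars for SE and filled points where the adjusted p was under 0.05. Melanosome genes lie on both sides of 0, with Sytl2 and Pmel highest and Lyst lowest, while Ptgds, Sox9 and Sox10 lead the regulators.

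Markers of other cells that use the same genes were set beside these values, with 5.83% of all genes called higher and 3.8% lower averaged over genotypes. Of 10 measured Schwann cell genes, which share the neural crest origin and Sox10, 6 rose in valve and 0 fell, and their mean ranged between 0.03 and 0.43 in valve Eln+/- and -0.03 and 0.65 in valve Eln+/+, against -0.88 to -0.23 in aorta Eln+/- and -1.08 to -0.20 in aorta Eln+/+. Of 9 mast cell genes, which matter for Kit and Mitf, 2 rose (Mcpt4 and Gata2), while Cpa3, a mast cell protease, differed by 0.37 ± 0.34 (SE; limma adjusted p = 0.616). Of 9 keratinocyte genes, which would mark skin, 0 passed in limma and 1 had an unadjusted p under 0.05. Of 7 genes of the retinal pigment epithelium 1 rose (Lrat) and 0 fell, and of 12 macrophage genes 1 rose (C1qb). Averaged over genotypes, all 12 macrophage genes, all 9 mast cell genes and 9 of the 10 Schwann cell genes were above 0. Their medians were 0.56, 0.27 and 0.67. Of the keratinocyte genes 5 of 9 and of the retinal genes 3 of 7 were above 0, with medians of 0.01 and -0.04. Over all genes 44.3% were above 0 and the median was -0.03. The part of Schwann cells, mast cells and macrophages in the Sox10, Kit, Mitf and Gpnmb values was not tested.

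The genes most like the 5 pigment genes Dct, Tyrp1, Mlana, Tyr and Slc45a2 were looked up by correlation with the mean of their z scores, as a description. Over the 16 arrays, which fall into 2 tissues, these were Acot1 (r = 0.932), Astn1 (0.921), Dpysl4 (0.916), Rtn4rl1 (0.910), Myo7a (0.904), Fbn2 (0.899), Unc5b (0.897) and Pirt (0.896). Each of these 8 had a higher mean in valve, and Pirt had the largest gap, with means of 2.30 in valve and -1.01 in aorta on the log2 scale. Over the 8 valve arrays alone the nearest to the mean z score were Arrb1 (r = 0.974), Mki67 (0.972), Mrps14 (0.961), Pnpla7 (0.957) and Stmn1 (0.952). None of these was among the 8 over all arrays. Within the valve the 5 pigment genes did not all vary together. Their r with Dct was 0.946 for Tyrp1, 0.524 for Tyr, 0.195 for Slc45a2 and -0.0965 for Mlana. Likeness to the mean there is thus not likeness to each of the 5.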

How the data were processed

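The microarray values (an Affymetrix mouse GeneChip, 16 arrays, 4 in each of 4 groups) were normalized by RMA, per the submitters' processing notes. The deposited unit is a linear ratio of each probe set to its median over the arrays; that division was read from the values, since the median was 1 (to within 1e-06) in 39780 probe sets, below 1 in 5257 and above 1 in 0. Where it was below 1 the divisor exceeded the median, as a floor at low signal would give, and leaving these out was tried as a filter after seeing the data. Such ratios otherwise hold no signal level, and 4 arrays a group limit the precision. Log2 of the ratio was taken, 64 control probe sets were left out, and limma 3.58.1 (R 4.3.3; lmFit, eBayes) was fitted with 4 group means (12 residual and 3.6 prior degrees of freedom; Benjamini-Hochberg over 45037 probe sets; two-sided; threshold 0.05), after a test on simulated data. Each gene was represented by its probe set of highest SD. Exact permutation tests were enumerated in Python 3.11.15 with numpy 2.4.6, and the ranks for Spearman's rho came from scipy 1.17.1. Numbers shared by a valve and an aorta array were not taken as pairs: their deviations correlated between -0.0396 and 0.0516, and the submitters' text gives no link. The named genes are the 8 members, the genes of 2 pigment lists past the threshold or of lowest p, up to 3 per marker list and the most alike genes; the members and lists were chosen with earlier results of these data known. Genome build and software versions upstream are not given in the sources used here.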

Additional observations from a re-analysis of the deposited data

Results flagged for a closer look

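In 2 of 64 groups of 4 arrays examined, 1 array stood apart, with a gap to its nearest neighbour past Dixon's 95% limit; chance marks about 1 group in 20. Mlana in valve Eln+/+ replicate 4 was 2.41, against 1.10, 1.13 and 1.21 on the other arrays of that group, a gap of 0.915 of the range. Tyr by probe set 1417717_a_at in valve Eln+/- replicate 1 was 0.684, against 0.018, 0.045 and 0.070 on the others, a gap of 0.922 of the range.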

How the results depend on the processing

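Under all 28 alternatives the calls of Dct, Mlana and Tyrp1 in Eln+/- tissue were kept, as were those averaged over genotypes under all 27. In Eln+/+ tissue the count of 2 called genes became 1 with only the groups compared fitted (Mlana), 1 with the replicate number as a block (Dct) and 1 with the 2 aorta arrays of higher heart muscle signal left out (Mlana; added after seeing the data), and it ranged between 0 and 3 when leaving out 1 array at a time. The shared numbers are not known to pair arrays. For Eln+/+ replicates 2 and 4, Xist was high in only 1 of the 2 tissues, so those numbers did not join arrays of 1 mouse. The block changed no other count of called genes. Leaving out probe sets of median ratio below 1, also added after seeing the data, kept the counts in Eln+/+ and Eln+/- at 2 and 3. These are samples of 4 a group, and the relative values give no signal over background.

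The differences that changed sign were all short of the threshold. Taking the mean of all probe sets of a gene gave Kit -0.034 in Eln+/+ tissue, Mc1r -0.037 in Eln+/- tissue and Mitf 0.12 in the interaction, and averaged over genotypes it added calls of Mitf at 0.67 and Slc45a2 at 0.36. For genotype in the valve, Mlana was -0.23 with quantile normalization, and with heart muscle as a covariate Mlana was -1.12, Mitf -0.0068, Kit -0.0097 and Mc1r -0.056. With the atrial mean as a covariate, added after seeing the data, Mlana was -0.41. With Xist minus Y-linked genes as a covariate Tyr was 0.23, Mitf -0.49, Kit -0.15 and Slc45a2 0.24 in the valve, and Tyrp1 0.25, Tyr 0.44 and Slc45a2 0.053 in the aorta. For genotype in the aorta, array weights gave Dct -0.015 and Mlana -0.020, a pseudocount of 0.1 gave Mlana -0.0011 and heart muscle as a covariate gave Mlana -0.0043; in the interaction quantile normalization gave Mlana -0.24. Leaving out 1 array gave Slc45a2 -0.10 to 0.34 in Eln+/+ tissue. For genotype in the valve it gave Mlana -0.12 to 0.61, Mitf -0.10 to 0.29, Mc1r -0.043 to 0.20 and Slc45a2 -0.28 to 0.16, and in the aorta Dct -0.011 to 0.13, Mlana -0.15 to 0.17, Tyr -0.14 to 0.12 and Kit -0.54 to 0.25. The Mlana interaction ran between -0.12 and 0.61. The cause was not tested.

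Counts over all probe sets moved more. In Eln+/+ tissue 426 were called, 692 with quantile normalization and as few as 173 without valve Eln+/+ replicate 1. In Eln+/- tissue 2615 were called, 1602 with only the groups compared fitted and as few as 1366 without valve Eln+/- replicate 3. For genotype in the valve 0 were called, and 11 without valve Eln+/- replicate 4.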
